A study of Mus musculus with 4 samples.

Results

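The myotubularins, a family of phosphoinositide phosphatases, were examined in primary mouse embryonic fibroblasts with and without RBP2. The 10 genes were Mtm1, Mtmr1, Mtmr2, Mtmr3, Mtmr4, Mtmr6, Mtmr7, Mtmr9, Mtmr10 and Mtmr12, of 18193 genes with a probe set of their own on the array. They were chosen from the measured values of 1 of them, because Mtm1 was higher in both RBP2-null lines, and every probe set annotated with exactly 1 of these symbols was taken. The genotype differences of Mtm1 and its relatives are therefore given as estimates with intervals, as a description. Counts of calls from the fit over the whole array stand beside their background, and nothing about the family is read from them.

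Myotubularins remove the phosphate from position 3 of the inositol ring of PI3P and of the doubly phosphorylated PI(3,5)P2, lipids that mark endosomes and steer membrane traffic and autophagy. The family also holds members without catalytic activity, which bind active ones and affect where they act or how stable they are. Loss of human MTM1 causes X-linked myotubular myopathy, a muscle disease, and mutations of MTMR2 cause a demyelinating form of Charcot-Marie-Tooth neuropathy, although the genes are transcribed in many tissues, fibroblasts included.

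Total RNA came from 2 independent lines of wild-type fibroblasts and 2 lines of RBP2-/- fibroblasts, all primary cultures at passage 3, with 1 biotin-labelled Affymetrix array per line. RBP2 (retinoblastoma binding protein 2, gene Kdm5a) is a demethylase of lysine 4 of histone H3, and the comparison asks which transcripts differ in its absence. The labels give no embryo age, strain, sex, litter or design of the RBP2 allele, and no treatment. The arrays differed in brightness, with a trimmed mean between 61.7 and 152, and were quantile normalized, so values below are normalized log2(signal + 9) unless called deposited. With 2 lines per genotype an exact two-sided permutation test cannot give a p below 0.333, so spreads were pooled over all probe sets in a limma fit, and standard errors and 95% intervals below come from that fit.

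All 8 fibroblast markers examined were measured, and Col1a1, Col1a2 and Vim lay between 12.60 and 13.29 on every array. Col3a1, S100a4 and Thy1 lay between 10.09 and 12.58, Pdgfrb between 8.78 and 9.45 and Dcn between 6.25 and 7.62. The muscle markers Myog, Myf5, Myh3 and Myh8, the leukocyte marker Ptprc, the endothelial marker Pecam1 and the epithelial marker Cdh1 were too dim to be kept. Other markers of those cell types were kept, namely 4 of 8 for muscle (Acta1, Des, Ckm and Myod1) and 2 of 4 for leukocytes (Csf1r and Tyrobp). So were 3 of 4 for epithelium (Epcam, Krt8 and Krt18), 2 of 3 for endothelium (Kdr and Cdh5) and 3 of 4 neural markers (Map2, Sox10 and Tubb3). Acta1 lay between 7.87 and 10.16 over the 4 arrays and Epcam between 8.30 and 9.25. Map2 lay between 7.54 and 8.71 and Csf1r between 6.90 and 7.24. The Epcam probe set is of a type that can bind several transcripts. The summed normalized signal of the kept leukocyte markers was 162 to 189 in wild type and 130 to 140 in RBP2-null lines. It was 513 to 698 and 421 to 577 for the epithelial markers, 79.7 to 97.8 and 81.0 to 90.7 for the endothelial and 305 to 466 and 379 to 503 for the neural ones. The part of such cells in the results below was not tested. The brightest probe set of the targeted gene, Kdm5a, had values of 6.72 and 7.65 in wild-type and 6.40 and 6.49 in RBP2-null lines. Its other 4 kept probe sets had log2 fold changes from -1.24 to 0.24, and nothing in the sources used here says which of the 5 read the deleted part. Wild-type replicate 1 stood apart, with a correlation of 0.927 or 0.928 with each other array, against 0.948 to 0.965 among those. For Xist, transcribed from the inactive X chromosome, the values were 10.68 in wild-type replicate 1 and 10.23 in RBP2-null replicate 2, against 6.22 and 5.88 in the other two lines. The Y-linked Eif2s3y had the opposite order, 3.28 and 3.62 against 7.07 and 7.23, so each genotype had 1 line of either pattern.

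The members had 24 probe sets, of which 22 passed the filter on low signal, and every gene had at least 1 that passed. Each probe set pools several short probes against a transcript, and the brightest of a gene over all 4 arrays stands for it below. Levels of different probe sets depend on their probes and are not compared with each other. The dim ones were 1443092_at of Mtmr3, with deposited signals of 2.7, 3.1, 3.1 and 4.2, and 1447831_s_at of Mtmr7, with 6.1, 10.8, 4.8 and 15.4, in wild-type replicates 1 and 2 and RBP2-null replicates 1 and 2. In bulk RNA, fewer expressing cells and less RNA per cell cannot be told apart.

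**Figure D1:**
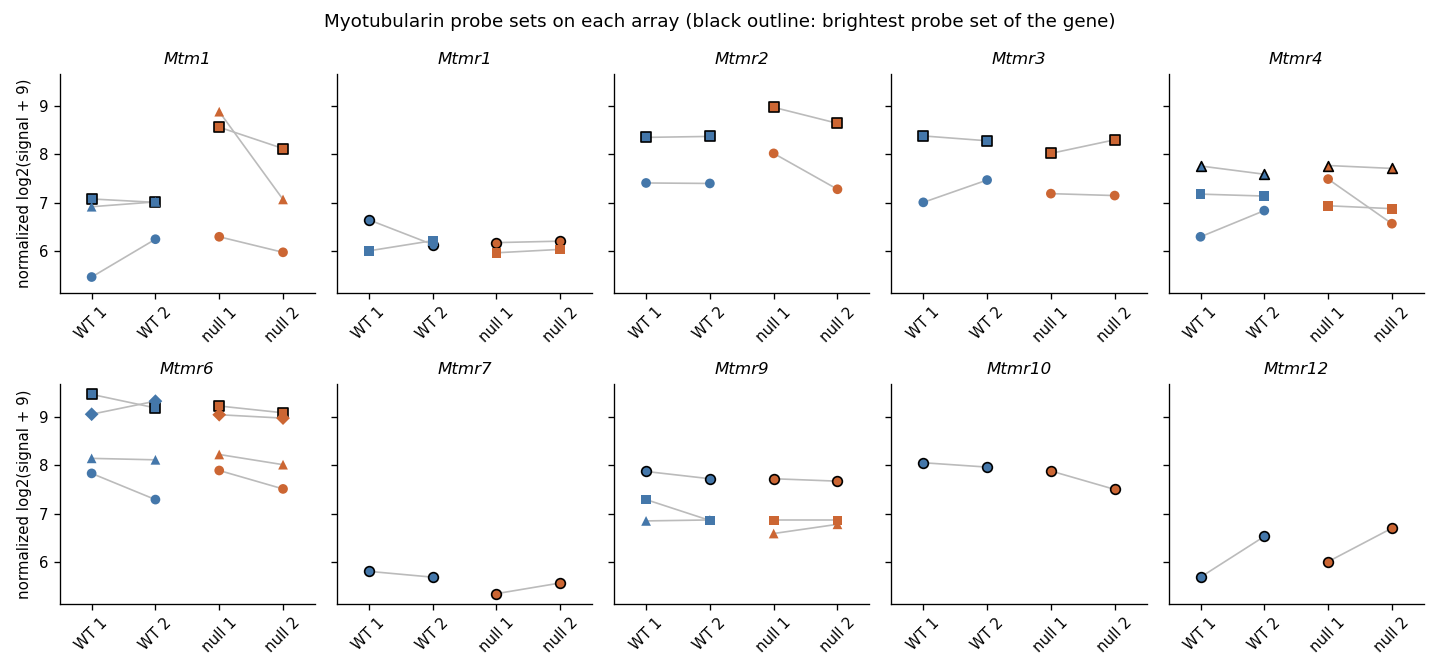
Normalized log2(signal + 9) (vertical axis) of the 22 kept probe sets on each array, wild type (WT, blue) and RBP2-null (orange), with 1 panel per gene, 1 marker shape per probe set and a black outline on the brightest. Grey lines join the lines of a genotype. On the brightest Mtm1 probe set, the RBP2-null lines at 8.56 and 8.12 lie above the wild-type lines at 7.08 and 7.01, and on the probe set drawn as triangles they lie apart, at 8.88 and 7.07.

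Mtm1, the founding member, acts on endosomal lipids and is required in muscle for the membrane system that couples excitation to contraction. Its brightest probe set, 1434278_at, had deposited signals of 78.6 and 123.1 in wild-type replicates 1 and 2 and of 298.3 and 422.2 in RBP2-null replicates 1 and 2. After normalization these were 7.08, 7.01, 8.56 and 8.12. The 2 wild-type lines were within 0.071 of each other, and both RBP2-null lines lay above them with no overlap. Wild type averaged 7.04 ± 0.05 (SD, n = 2) and RBP2-null averaged 8.34 ± 0.31 (SD, n = 2). This gave a log2 fold change of 1.30 (standard error 0.25, 95% interval 0.72 to 1.88), which is 2.46-fold with bounds of 1.64 and 3.67.

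The remaining Mtm1 probe sets gave a less even picture. On 1454904_at the normalized values were 6.92 and 7.02 in wild type and 8.88 and 7.07 in RBP2-null lines. RBP2-null replicate 1 stood far above the other 3 arrays there, and replicate 2 exceeded the higher wild-type line only narrowly, with deposited signals of 377.4 and 198.7 against 71.0 and 123.8. The log2 fold change was 1.00 (standard error 0.50, 95% interval -0.14 to 2.14), and without RBP2-null replicate 1 it was 0.10. On 1416934_at, which was dimmer, the values were 5.47 and 6.25 in wild type and 6.30 and 5.98 in RBP2-null lines, so the genotypes overlapped. Its log2 fold change was 0.28 (standard error 0.36), and it turned to -0.12 without wild-type replicate 1. The annotation gives the same expressed sequence tag as the source of 1434278_at and 1454904_at, so they are not independent reads of the transcript, whereas 1416934_at was designed from an mRNA record.

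**Figure D2:**
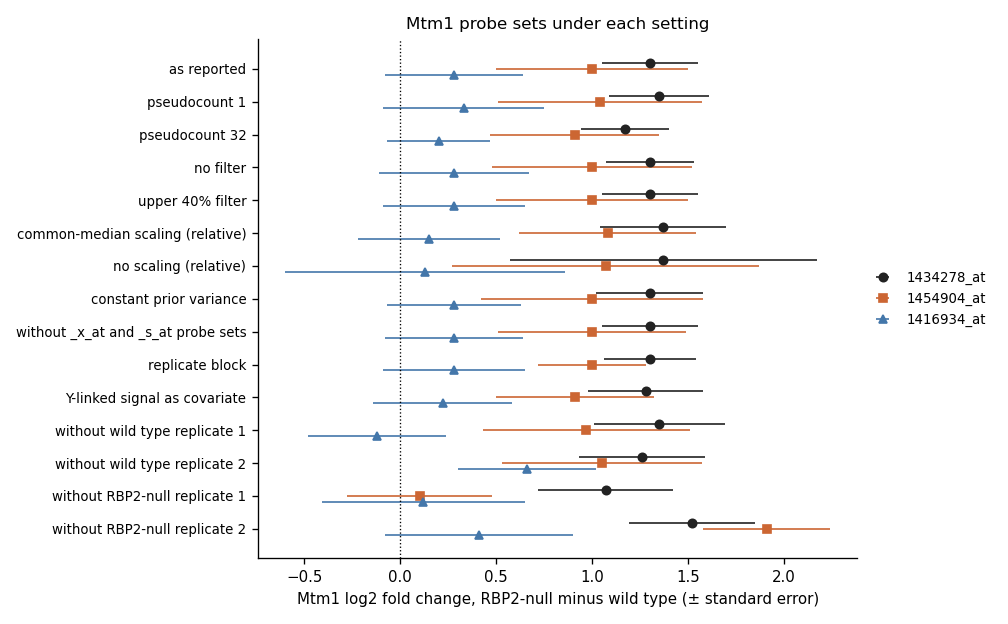
Log2 fold change of the 3 Mtm1 probe sets, RBP2-null minus wild type, with its standard error (horizontal axis), as reported and under each of 14 other settings (vertical axis); "relative" means after subtracting the median shift of all probe sets. The brightest probe set stays between 1.07 and 1.52, while 1454904_at has 0.10 when RBP2-null replicate 1 is left out and 1.91 when replicate 2 is.

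Mtm1 and its closest relative Mtmr1 are X-linked and lie side by side, with no gene between them in the RefSeq annotation. Since the lines differed in Xist and Y-linked signal, Mtm1 was also compared within each pattern. Both differences on 1434278_at had to be positive, since Mtm1 was chosen for RBP2-null lines above wild type, so only their sizes are described. On 1434278_at, RBP2-null replicate 1 exceeded wild-type replicate 2, the lines with Y-linked signal, by 1.55, and RBP2-null replicate 2 exceeded wild-type replicate 1, the lines with Xist signal, by 1.04. On 1454904_at the same differences were 1.86 and 0.15, and on 1416934_at they were 0.049 and 0.51. With Y-linked signal as a covariate the log2 fold change of 1434278_at was 1.28.

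Mtmr1 is an active phosphatase. Its brightest probe set, 1421879_at, had 6.65 and 6.14 in wild type and 6.18 and 6.21 in RBP2-null lines. The log2 fold change was -0.20 with a 95% interval from -0.91 to 0.51, and 0.060 without wild-type replicate 1. Another Mtmr1 probe set from the same source sequence had -0.11, and on both the genotypes overlapped. The other 5 measured neighbours of Mtm1 had log2 fold changes from -0.30 to -0.090. On the far side of Mtmr1 they were Cd99l2 with a log2 fold change of -0.090 and the high mobility group gene Hmgb3 with -0.13, and on the other side Mamld1, Tmem185a and Eola1 with -0.28, -0.14 and -0.30. Both RBP2-null lines of Mamld1, at 6.18 and 6.52, were below the wild-type lines at 6.63 and 6.62, and on the other 4 the genotypes overlapped.

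RefSeq sequence upstream of both neighbours is shown because RBP2 has a DNA-binding domain, the ARID, known to recognise CCGCCC, and because Mtm1, chosen for its values, and Mtmr1 are adjacent. Each run covers the 250 bases before an annotated start in GRCm38.p6, plus strand, at chrX:71214756-71215005 for Mtm1 and chrX:71364510-71364759 for Mtmr1, with CCGCCC and its reverse complement GGGCGG in capitals.
Mtm1: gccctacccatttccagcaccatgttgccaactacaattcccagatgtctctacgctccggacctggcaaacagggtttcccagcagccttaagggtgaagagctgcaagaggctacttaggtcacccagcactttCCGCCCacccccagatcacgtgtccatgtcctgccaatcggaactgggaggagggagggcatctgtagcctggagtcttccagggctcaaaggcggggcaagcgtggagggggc
Mtmr1: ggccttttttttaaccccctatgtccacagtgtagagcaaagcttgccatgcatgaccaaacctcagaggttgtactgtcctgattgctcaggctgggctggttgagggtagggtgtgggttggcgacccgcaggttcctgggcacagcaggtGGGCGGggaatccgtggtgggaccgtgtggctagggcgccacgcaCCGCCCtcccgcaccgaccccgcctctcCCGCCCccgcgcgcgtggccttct
The motif, counted on both strands, occurred 1 time in the Mtm1 run and 3 times in the Mtmr1 run. With the 50 bases after the start included, the Mtm1 window held 4 matches and the Mtmr1 window 3. A further Mtm1 start, at 68 bases downstream, had 4 in its window of 300 bases, all of them in the 250 bases before it, so the order of the pair depends on the start taken, and a more distal one had 0. The same 6 letters form the core of the GC box bound by Sp1, and 35.7% of the 32851 promoter windows of this length in the table held at least 1. Windows were at hand for 6 of the 10 genes, of which Mtmr2, Mtmr10 and Mtmr12 had a match in at least 1 window and Mtmr6 had none. The 35.7% is a share of single windows, so it does not compare with genes that have several. Member windows with a match held 14 to 36 CpG dinucleotides (C followed by G) and the Mtmr6 window 14, against a median of 7 over all windows. A match describes the letters and not binding, which was not measured here.

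Mtmr2, the phosphatase whose human counterpart is mutated in the neuropathy, had the next largest estimate above 0 among the brightest probe sets. On 1425460_at the deposited signals were 193.6 and 332.3 in wild type and 407.3 and 609.6 in RBP2-null lines, or 8.35, 8.37, 8.97 and 8.64 after normalization. Both RBP2-null lines lay above both wild-type lines, which were within 0.015 of each other. The log2 fold change was 0.45 (standard error 0.22, 95% interval -0.059 to 0.95), and without RBP2-null replicate 1 it was 0.28. A dimmer probe set from the same source sequence, 1425459_at, had 7.41 and 7.40 in wild type and 8.02 and 7.28 in RBP2-null lines, so that only replicate 1 was high, with a log2 fold change of 0.25 that turned to -0.12 without that line.

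Mtmr3 and Mtmr4 form a pair of active phosphatases with an additional FYVE domain. The brightest Mtmr3 probe set had 8.38 and 8.28 in wild type and 8.02 and 8.30 in RBP2-null lines, which overlapped, and its log2 fold change was -0.17 (95% interval -0.68 to 0.35). The probe sets of Mtmr4 went separate ways. Its brightest had 7.76 and 7.59 in wild type and 7.77 and 7.71 in RBP2-null lines and a log2 fold change of 0.067. On 1418150_at the values were 6.30 and 6.84 against 7.49 and 6.57, a log2 fold change of 0.46 carried by RBP2-null replicate 1. On 1418151_at, from the same source sequence, they were 7.18 and 7.14 against 6.94 and 6.88, with both RBP2-null lines lower and a log2 fold change of -0.25 (standard error 0.25).

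Mtmr6 and Mtmr7 are closely related active phosphatases that bind the inactive Mtmr9. The brightest Mtmr6 probe set had 9.46 and 9.18 in wild type and 9.22 and 9.08 in RBP2-null lines. The genotypes overlapped on it, and its log2 fold change was -0.17 with a 95% interval from -0.64 to 0.30. The other 3 Mtmr6 probe sets had log2 fold changes of 0.14, -0.010 and -0.18. Mtmr7 had 5.81 and 5.69 in wild type and 5.35 and 5.57 in RBP2-null lines on its only kept probe set. Both RBP2-null lines were lower there, with a log2 fold change of -0.29 (standard error 0.34, 95% interval -1.06 to 0.49).

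The 3 members that lack catalytic activity are Mtmr9, Mtmr10 and Mtmr12. Mtmr9, the partner of Mtmr6 and Mtmr7, had 7.87 and 7.72 in wild type and 7.72 and 7.67 in RBP2-null lines, and its log2 fold change was -0.10, with -0.21 and -0.18 on its other probe sets. Mtmr10 had values of 8.05 and 7.96 in wild type and 7.88 and 7.50 in RBP2-null lines, both of which were lower. Its log2 fold change was -0.31 (standard error 0.24, 95% interval -0.87 to 0.24), and -0.50 to -0.13 with 1 array left out, the value nearest 0 without RBP2-null replicate 2. Mtmr12, the adaptor that binds and stabilises Mtm1, had 5.69 and 6.53 in wild type and 6.01 and 6.70 in RBP2-null lines. Lines of 1 genotype differed more on it than the genotypes did, by 0.84 in wild type and 0.69 in RBP2-null cells, and the log2 fold change of 0.24 had a 95% interval from -0.64 to 1.13. It turned to -0.18 without wild-type replicate 1 and to -0.092 without RBP2-null replicate 2.

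**Figure D3:**
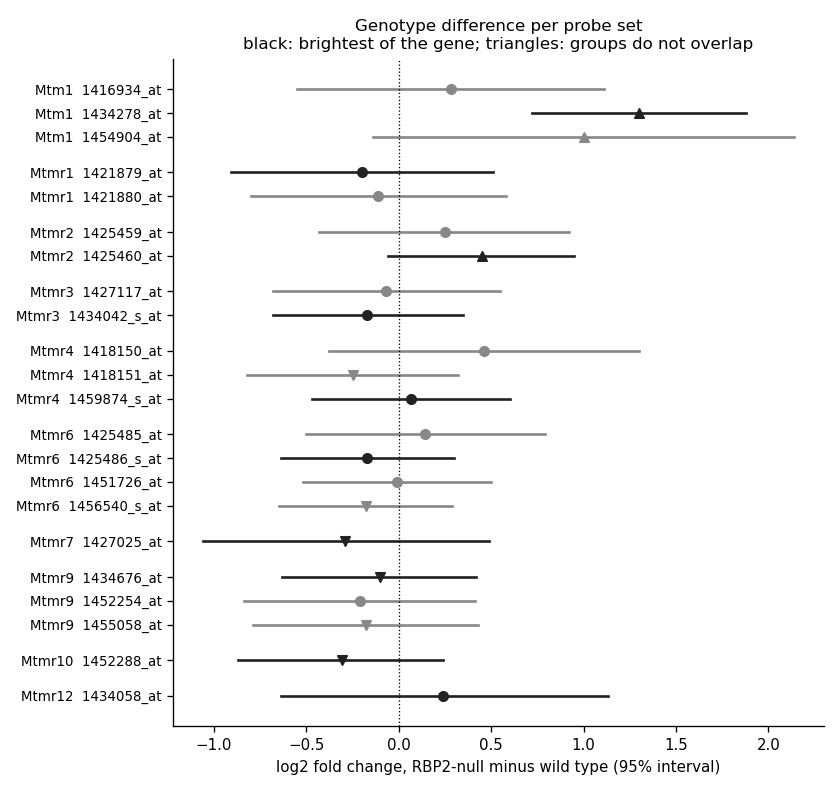
Log2 fold change of each kept myotubularin probe set, RBP2-null minus wild type, with its 95% interval from the limma fit (horizontal axis); black marks the brightest probe set of a gene, and upward or downward triangles mark probe sets whose RBP2-null arrays both lie above or below both wild-type arrays. Mtm1, chosen because it was higher in both RBP2-null lines, has 1.30 on 1434278_at (0.72 to 1.88), and the 19 probe sets of the other genes lie between -0.31 and 0.46.

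Across the 22 kept probe sets, 9 estimates exceeded 0 and 13 lay under it, for a median of -0.084, against 0.0031 over all 27022 kept probe sets. None of the 22 passed a limma adjusted p of 0.05, beside 0.0037% of all kept probe sets. The limma p before adjustment was under 0.05 for 807 of the 27022 kept probe sets. Among the 22 it was under 0.05 for 1, 1434278_at of Mtm1, which was chosen for its difference. Both RBP2-null arrays lay above both wild-type arrays on 3 member probe sets and below them on 6, beside 14.6% and 14.9% of all kept probe sets. Because the genes were chosen on this contrast, nothing is read from these counts. Leaving out Mtm1, the other 19 probe sets had log2 fold changes from -0.31 to 0.46. None of the 19 reached an absolute log2 fold change of 1, which 2.34% of all kept probe sets did.

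Lines of the same genotype were close for most members. The median gap between the 2 wild-type lines was 0.16 over the 22 member probe sets and 0.34 over all kept ones, and between the 2 RBP2-null lines it was 0.21 and 0.30. The 2 sets of probe sets were not matched for brightness, so the smaller medians are not read as a trait of the members. The largest gap was the 1.80 between the RBP2-null lines on 1454904_at of Mtm1. Next came 0.92 between the RBP2-null lines on 1418150_at of Mtmr4. The wild-type lines differed by 0.84 on Mtmr12 and by 0.78 on 1416934_at of Mtm1. Of the 7 genes with several kept probe sets, 5 had estimates of 1 sign on all of them, and Mtmr4 and Mtmr6 did not. The share with 1 sign was 41.1% over the 5803 genes of the array with several kept probe sets, whose number per gene differs. Mtm1 is 1 of the 5 and was chosen for its direction. In Mtm1, Mtmr1, Mtmr2 and Mtmr9, some probe sets share a source sequence, so they are not independent reads. Nothing about the family is read from this count.

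The other myotubularin relatives on the array had values in both directions and none past the threshold. Mtmr14, a more distant active phosphatase, had 6.63 and 6.55 in wild type and 7.31 and 6.78 in RBP2-null lines, with a log2 fold change of 0.46. Sbf1 and Sbf2, the large inactive partners of Mtmr2, had 0.11 and -0.23, and Mtmr11, also inactive, had -0.57 (standard error 0.39).

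The wider phosphoinositide pathway was read through lists of genes, none of which had a member past the adjusted limma threshold. Of the 70 genes measured in the 7 lists of relatives, pathway and myopathy genes, 2 (2.86%) had an unadjusted limma p under 0.05, beside 2.60% of all genes tested, so the lists were near the background. They were Atg14 and the sorting nexin Snx2, the latter with a log2 fold change of 0.45 and named after its values were seen. Subunits and regulators of the kinase complexes that make PI3P, the substrate of the myotubularins, had 6 of 8 measured estimates above 0, with a median of 0.13, against 48.5% of the 13097 genes tested and a median of -0.010. Of the 6, Pik3r4 (0.015) and Uvrag (0.0062) were close to 0. Atg14, the subunit that directs the kinase complex to autophagy, had 0.68 and Becn1, its partner, 0.47, while Pik3c2a had -0.19 and Rubcn, an inhibitor of the complex, -0.11. Atg14 had 5.89 and 5.79 in wild type and 6.50 and 6.55 in RBP2-null lines, which did not overlap. On Becn1 the genotypes overlapped, and wild-type replicate 1 at 7.95 was below the other arrays at 8.87, 8.92 and 8.84. Of the complex that converts PI3P to PI(3,5)P2, the kinase Pikfyve had 0.17, the scaffold Vac14 0.51 and the phosphatase Fig4 -0.14.

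Proteins that bind these lipids, 20 in all, were split evenly, 10 positive and 10 negative, around a median of -0.0044. The highest were the FYVE proteins Zfyve1 and Zfyve16, both with 0.63, and the lowest were the kinase Sgk3 with -0.51 and Zfyve9 with -0.28. Other phosphoinositide phosphatases had 6 of 14 above 0 and a median of -0.072. Inpp5e, a ciliary phosphatase, had the highest value, 1.00 (standard error 0.46), and wild-type replicate 1 at 4.54 was far below the other arrays at 5.83, 6.03 and 6.34. Ocrl had 0.64, again with wild-type replicate 1, at 5.50, below the other arrays at 6.62, 6.72 and 6.67. Inpp5f had -0.39 and Pip4p2 -0.36. Other phosphoinositide kinases had 10 of 17 above 0 and a median of 0.026, with Pi4kb and Pik3r2 at 0.76 and 0.40 and Pip5k1b and Pip4k2c at -0.60 and -0.43. On Pi4kb, wild-type replicate 2 at 4.44 was below the other arrays at 5.98, 6.20 and 5.75.

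**Figure D4:**
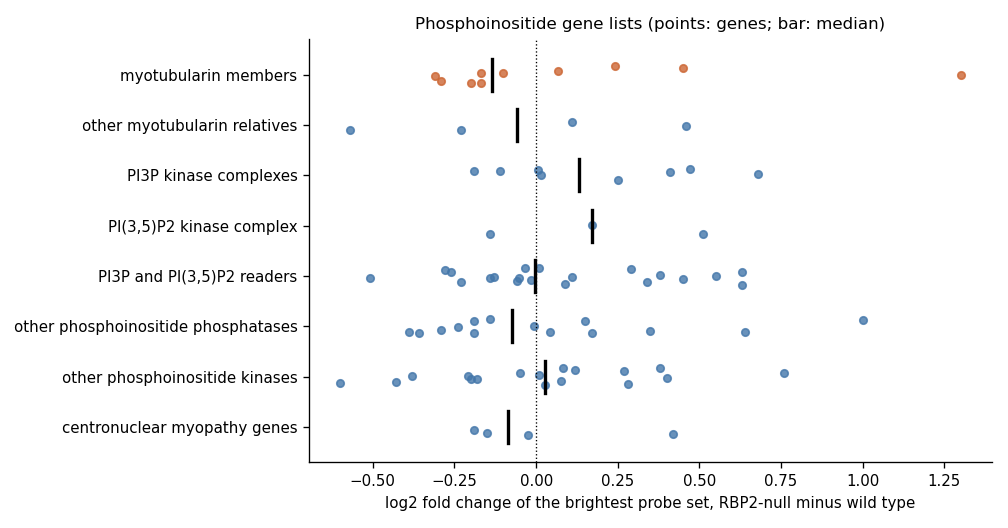
Log2 fold change of the brightest probe set of each measured gene, RBP2-null minus wild type (horizontal axis), in the myotubularins (orange) and 7 related lists (blue), with a bar at each median. Mtm1, chosen for its difference, is at 1.30, and the list medians lie between -0.14 and 0.17.

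Among genes of centronuclear myopathy, the disease group to which MTM1 belongs, Bin1, Dnm2 and Ryr1 had -0.19, -0.024 and -0.15 and Speg had 0.42. None was past the threshold. Of 8 skeletal muscle markers, 4 were kept and 4 were too dim. Ckm had 0.70, Acta1 0.20, Des -0.12 and Myod1 -0.74. The summed normalized signal of the kept muscle markers was 795 and 439 in wild-type replicates 1 and 2. In RBP2-null replicates 1 and 2 it was 1280 and 382. In RBP2-null replicate 1, Acta1 (10.16) and Ckm (6.62) were the highest of the 4 arrays and Des (5.72) and Myod1 (4.42) the lowest. In RBP2-null replicates 1 and 2, Mtm1 had 8.56 and 8.12 on 1434278_at, 8.88 and 7.07 on 1454904_at and 6.30 and 5.98 on 1416934_at. Wild-type replicates 1 and 2 had 7.08 and 7.01, 6.92 and 7.02, and 5.47 and 6.25 on them. The order on 1434278_at was fixed by the choice of Mtm1. The part of muscle cells in the result was not tested.

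The 5 probe sets of other genes closest to 1434278_at of Mtm1 over the 4 arrays, by root-mean-square distance between log2 profiles centred on their own mean, were those of Mark4 (0.0402), Mtarc1 (0.0439), Fam3a (0.0671), Ap3m2 (0.0838) and Mynn (0.0870). With 4 arrays this is a description of 4 numbers per probe set.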

How the data were processed

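The authors deposited linear signal intensities of 45101 probe sets on each 1-colour Affymetrix array, per the labels. Nothing in the sources used here gives the summarisation, background correction or presence calls. The deposited intensities were quantile normalized, a pseudocount of 9 (their 25th percentile, rounded) was added, and log2 was taken, so fold changes of dim probe sets are understated. After removal of 64 controls, the brighter 60% of the rest by mean over all arrays, 27022 in all, were tested. RBP2-null was compared with wild type by limma 3.58.1 under R 4.3.3 (lmFit, eBayes with a mean-dependent prior, two-sided, Benjamini-Hochberg over all kept probe sets, threshold 0.05), after the procedure was tested on simulated data. The p-values reflect only how these lines spread. Symbols came from a platform annotation table: 34945 probe sets had 1 symbol, 932 several and 9160 none. RefSeq tables (GRCm38.p6) gave neighbours and sequences. The members, lists and tests were chosen with earlier results of these data known. All 10 members were named, with the 2 highest and 2 lowest genes of each pathway list (all where a list had 5 or fewer), 3 measured neighbours on each side and the 5 nearest profiles. Alternatives covered pseudocount, filter, scaling, variance, probe sets that can bind several transcripts, replicate block, Y-linked signal, threshold and each array left out.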

Additional observations from a re-analysis of the deposited data

How the results depend on the processing

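The estimate of Mtm1 on its brightest probe set stayed above 0 under all 14 alternatives and ranged from 1.07 to 1.52 when 1 array was left out, the lower value without RBP2-null replicate 1. Its sign is no test of stability, since Mtm1 was chosen because it was higher in both RBP2-null lines. The filter, prior variance and replicate block settings left the estimate at 1.30, because they do not change a difference of group means. The number of probe sets past the threshold, 1 as reported, was 0 without the filter, without scaling, with a constant prior variance and with Y-linked signal as a covariate, 2 with arrays scaled to a common median, and from 0 to 85 with 1 array left out, the highest without wild-type replicate 2. The cause was not tested. With the replicate block it was 39, of which 1 was a member, 1434278_at of Mtm1. The numbers were not taken as pairs, since the labels do not say what they share, and deviations of same-numbered lines correlated at 0.113. No member passed in any other setting. Of 125 values of the other 9 genes under the alternatives, 120 kept their direction. That count includes the filter, prior variance and replicate block settings, which repeat the reported estimates and could not turn a sign. The 5 that did not were in Mtmr1, Mtmr4 and Mtmr12. With 1 array left out, Mtmr1 ranged from -0.45 to 0.060, Mtmr4 from -0.017 to 0.15 and Mtmr12 from -0.18 to 0.66, with the sign turned without wild-type replicate 1 (Mtmr1, Mtmr12), wild-type replicate 2 (Mtmr4) and RBP2-null replicate 2 (Mtmr12, -0.092). Mtmr4 had -0.25 on the probe set left when those able to bind several transcripts were dropped. Scaling to a common median moved the median of all probe sets by 0.16 and no scaling by 0.38, and values in both settings are relative to that shift. Before subtraction, the signs of Mtmr3, Mtmr6 and Mtmr9 turned with a common median, to 0.066, 0.11 and 0.12, and those of 5 members without scaling. The 4 arrays limit the precision, with a median standard error of 0.33.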
